A study of Mus musculus with 9 samples.

Results

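Proneural and glial basic helix-loop-helix (bHLH) factors were followed in mouse embryonic stem cells that lose and regain Suz12, which the Polycomb repressive complex PRC2 needs for its assembly and activity. The 9 genes, Neurog1, Neurog2, Neurog3, Neurod1, Atoh1, Olig1, Olig2, Hes5 and Hey1, were taken by symbol from a list of bHLH genes of neural fate, by a rule that uses no measured value, although the list was drawn up with earlier results of these data known. All of them were found among the 48440 genes of the count tables. Poly(A) RNA was sequenced from J1 cells grown in serum with LIF and inhibitors of MEK and GSK3, conditions that hold cells in the naive pluripotent state. Every library, the controls included, carries the genotype Suz12-AID, in which an auxin-inducible degron leads to destruction of the Suz12 protein when auxin is present. The groups were Mock (no auxin dose given in the labels), Auxin (50 µM indole-3-acetic acid for 96 h) and Reintroduction (the same treatment followed by a washout of 4.5 h), with 3 biological replicates each. The labels name no clone, and all libraries come from 1 cell line.

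PRC2 places a repressive methyl mark on histone H3 and is best known in stem cells for holding developmental transcription factor genes, many with CpG-rich promoters, at low expression. Proneural bHLH factors bind E-box DNA as partners of the ubiquitous E proteins and start the neuronal programme. Notch signalling opposes them through the DNA-binding protein RBPJ, which switches on HES and HEY genes, themselves bHLH repressors. The OLIG factors pattern the ventral neural tube and specify oligodendrocytes.

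Of the 9 genes, Hey1 was the most abundant, and Neurog3 was also detected in every library. Only 3 of the 9 could be tested. Of these, 0 were called higher in Auxin than in Mock, beside 38.4% of all genes tested. Neurog3 and Neurod1 had 0 Auxin libraries over the filter level and entered the test through the other groups. For them the filter left little room for a call higher in Auxin. Neurog1 and Neurog2 had 0 counts in every library. Hey1 and Neurog3 fell in Auxin, by 2.33-fold and 5.33-fold, and both lay between the Auxin and Mock levels in Reintroduction. Their rise from Auxin was less firm. Its call was lost in 5 of 16 alternative ways of processing for Hey1 and in 13 of 15 for Neurog3. The other detected genes, Neurod1, Atoh1, Olig1, Olig2 and Hes5, rested on a few counts per library. In bulk RNA, fewer cells that express a gene and less RNA per cell cannot be told apart.

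The promoter windows of the neurogenins are shown because these genes share a family role but differ in detection, 2 being silent and 1 being detected and lower in Auxin. Sequences are from RefSeq on GRCm38.p6 (250 bases before to 50 bases after the start, 5′ to 3′ on the gene's strand), and capitals mark CpG dinucleotides. The window of Neurog1 is chr13:56252131-56252430 (minus strand), that of Neurog2 is chr3:127632886-127633185 (plus strand) and that of Neurog3 is chr10:62132840-62133139 (plus strand).
Neurog1: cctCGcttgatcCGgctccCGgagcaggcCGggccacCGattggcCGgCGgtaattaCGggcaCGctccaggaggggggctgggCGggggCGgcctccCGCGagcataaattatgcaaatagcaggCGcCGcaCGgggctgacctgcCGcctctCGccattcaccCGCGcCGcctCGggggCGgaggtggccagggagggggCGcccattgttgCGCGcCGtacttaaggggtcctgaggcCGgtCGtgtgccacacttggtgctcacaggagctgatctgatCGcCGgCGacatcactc
Neurog2: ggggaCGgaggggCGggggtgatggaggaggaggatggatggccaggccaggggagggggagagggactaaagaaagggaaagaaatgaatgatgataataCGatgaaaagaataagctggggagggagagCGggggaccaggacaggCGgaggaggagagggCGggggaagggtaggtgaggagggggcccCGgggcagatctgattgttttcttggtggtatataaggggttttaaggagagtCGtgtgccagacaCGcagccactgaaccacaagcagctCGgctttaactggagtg
Neurog3: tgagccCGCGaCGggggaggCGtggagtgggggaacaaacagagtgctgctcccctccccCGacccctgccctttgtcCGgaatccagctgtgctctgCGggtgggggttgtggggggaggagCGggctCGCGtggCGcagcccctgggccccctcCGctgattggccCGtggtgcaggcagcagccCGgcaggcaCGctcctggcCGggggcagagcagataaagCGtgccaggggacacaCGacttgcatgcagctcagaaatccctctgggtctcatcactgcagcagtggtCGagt

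These windows hold 32 CpG in Neurog1, 10 in Neurog2 and 19 in Neurog3, where the median over all 32851 windows of the RefSeq table is 7. Both silent neurogenins therefore lie at the ends of this small range, and CpG number does not order the 3 genes by their counts. Windows were found for 7 of the 9 genes, all but Olig1 and Hey1. CpG numbers in the other 4 were 26 in Neurod1, 20 in Atoh1, 25 in Olig2 and 41 in Hes5, so all 7 were above the median, and Hes5 had at least as many as 97.0% of windows. The E-box CANNTG, the site of proneural factors, occurred 1 time each in the windows of Neurog1, Neurog3, Neurod1 and Hes5 and was not found in those of Neurog2, Atoh1 and Olig2, while 72.3% of all windows held it (both strands read).

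Hes5 is shown for its matches to the RBPJ core, since it is a classical Notch target. Its window is chr4:154960673-154960972 (plus strand), and capitals mark TGGGAA on either strand, at first bases -226 and -82 from the start.
Hes5: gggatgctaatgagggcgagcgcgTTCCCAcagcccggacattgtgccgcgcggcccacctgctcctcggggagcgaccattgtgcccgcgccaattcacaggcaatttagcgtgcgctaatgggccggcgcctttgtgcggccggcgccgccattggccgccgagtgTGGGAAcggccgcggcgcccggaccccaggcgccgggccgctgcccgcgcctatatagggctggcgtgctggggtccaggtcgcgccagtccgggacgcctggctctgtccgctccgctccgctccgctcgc

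The other 6 windows held no RBPJ core, and 3.79% of all windows held 2 or more. A match of letters is a description of the sequence and does not show binding.

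Hey1, a Notch-induced repressor, was the best measured gene (ENSMUSG00000040289.8, mm10 chromosome 3, 8663359 to 8667256, minus strand, 3 exon blocks). Mock replicates 1 to 3 held 208, 166 and 137 counts, the Auxin replicates 76, 66 and 51, and the Reintroduction replicates 96, 58 and 86. Scaled to counts-per-million values (CPM, with TMM factors for composition), the Mock replicates stood at 2.02, 2.00 and 1.92, the Auxin replicates at 0.927, 0.866 and 0.745, and the Reintroduction replicates at 1.2, 1.29 and 1.05. All Mock libraries were above all others, and all Reintroduction libraries were above all Auxin libraries. The share of all genes that separate in this way was not counted, and 73.2% of all genes were called in Auxin against Mock. The means were 1.98 ± 0.0553 CPM in Mock, 0.846 ± 0.0926 in Auxin and 1.18 ± 0.12 in Reintroduction (SD, n = 3 each). In Auxin against Mock the log2 fold change was -1.22 (SE 0.14, edgeR quasi-likelihood, adjusted p = 1.12e-05). In Reintroduction against Mock it was -0.75 (SE 0.14, adjusted p = 5.51e-04), so Hey1 remained 1.69-fold lower than in Mock. The rise from Auxin to Reintroduction was 0.47 (SE 0.15, adjusted p = 0.0217). That rise was the weaker result, and it was not called in 5 of 16 alternatives. It was 0.39 without Auxin replicate 3, 0.44 without Reintroduction replicate 1 and 0.41 without Reintroduction replicate 2. With only the 2 groups compared it was 0.46, and with counts halved 0.42. Hey1 shares no exon sequence with another gene, and of its nearest tested neighbours Stmn2 fell in Auxin (-0.53) while Gm38007 (-0.02) was not called.

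Hes5, the other Notch effector on the list, was almost silent (ENSMUSG00000048001.7, chromosome 4, 154960923 to 154962371, plus strand). The Mock replicates held 6, 1 and 2 counts, the Auxin replicates 2, 0 and 0, and all 3 Reintroduction replicates held 0. The sum of 2 counts in Auxin against 9 in Mock gives a depth-scaled ratio of 0.252 with an exact (Clopper-Pearson) 95% interval from 0.0265 to 1.22, which includes no difference. With a floor of 3 counts over Reintroduction and the 9 Mock counts taken as exact, Hes5 was 2.4-fold lower than in Mock. Such a value leaves out the counting error of the other group, so it is no strict lower bound. The intervals cover counting error only. Both intervals and floors are too narrow where both mates of a read pair were counted. In a fit without a filter on low counts the difference between Reintroduction and Mock was not called (edgeR, adjusted p = 0.0817). Hes5 shares 433 bp of its exons with Gm20421 on the opposite strand, and that gene had 0 counts in every library.

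Neurog1 and Neurog2, which commit progenitors to neuronal fate, were not detected at this depth. Neurog1 (ENSMUSG00000048904.4, chromosome 13, 56250505 to 56252163, minus strand) is a gene of 1 exon block, and Neurog2 (ENSMUSG00000027967.8, chromosome 3, 127633135 to 127635631, plus strand) has 2. A count of 0 was taken to allow up to 3 counts over a group, or 0.0117 CPM for Mock, 0.0132 for Auxin and 0.0145 for Reintroduction. Neither gene shares exon sequence with another. No fold change can be given for them.

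Neurog3, known for specifying endocrine cells of the pancreas as well as for roles in the nervous system, was the detected neurogenin (ENSMUSG00000044312.3, chromosome 10, 62133090 to 62134763, plus strand, 2 exon blocks). Counts of 41, 25 and 32 were found in the Mock replicates, 7, 6 and 3 in those with auxin, and 12, 8 and 11 after Reintroduction. As CPM, Mock gave 0.398, 0.302 and 0.448, Auxin gave 0.0854, 0.0787 and 0.0438, and Reintroduction gave 0.151, 0.178 and 0.135. The 3 groups did not overlap, with all Mock libraries highest and all Auxin libraries lowest, but such separation was not counted over all genes. Neurog3 fell in Auxin against Mock, at -2.41 log2 units (SE 0.35, edgeR quasi-likelihood, adjusted p = 7.47e-05). It was still lower in Reintroduction than in Mock, at -1.32 log2 units with an SE of 0.32 (adjusted p = 3.27e-03). The rise from Auxin to Reintroduction was 1.09 (SE 0.40, adjusted p = 0.0421), just inside the threshold. It was called in 2 of 15 alternatives, with values from 0.87 to 1.26 and adjusted p from 0.0389 to 0.165, and leaving out any 1 of the 6 libraries ended the call.

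The locus of Neurog3 lies within Fam241b, a gene on the opposite strand, and 273 bp (17.7%) of the exon length of Neurog3 is shared with it. Strand was not used in counting. Fam241b had 11.2 ± 0.99 CPM in Mock, 13.3 ± 1.65 in Auxin and 9.61 ± 0.318 in Reintroduction (n = 3 each). Its log2 fold change was 0.26 in Auxin against Mock (SE 0.09, adjusted p = 0.028) and -0.47 in Reintroduction against Auxin (SE 0.10, adjusted p = 1.74e-03), the opposite directions to Neurog3. The Auxin against Mock call of Fam241b was lost in 6 of 16 alternatives, namely DESeq2 size factors (0.23), the DESeq2 Wald test (0.23), the replicate block (0.26), and without Mock replicate 1 (0.23), without Mock replicate 2 (0.19) or Auxin replicate 2 (0.15). Of the nearest tested neighbours of Neurog3, Gm5424 was not called in Auxin against Mock (0.11) and Tspan15 rose (0.37).

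Neurod1, a driver of neuronal and endocrine differentiation that acts after the neurogenins, was at the edge of detection (ENSMUSG00000034701.9, chromosome 2, 79452521 to 79456751, minus strand). Mock libraries gave 14, 14 and 18 counts, Auxin libraries 0, 9 and 7, and Reintroduction libraries 5, 6 and 0. Mean levels were 0.186 ± 0.0597 CPM in Mock, 0.0734 ± 0.0641 in Auxin and 0.0655 ± 0.0669 in Reintroduction (SD, n = 3 each). Every Mock library was above every Auxin and Reintroduction library, but how many of all genes separate in this way was not counted. The nearest values were close, at 0.136 CPM in Mock replicate 1 and 0.134 CPM in Reintroduction replicate 2. Neither difference from Mock passed the test: the log2 fold change was -1.33 in Auxin (SE 0.82, adjusted p = 0.162) and -1.69 in Reintroduction (SE 0.88, adjusted p = 0.11). The first was -0.72 without Auxin replicate 1, and the second was -1.01 without Reintroduction replicate 3 and -2.50 without Reintroduction replicate 2. The change from Auxin to Reintroduction was -0.36 (SE 1.03, adjusted p = 0.799), and its sign turned without Auxin replicate 2 (0.20) or without Reintroduction replicate 3 (0.33). Neurod1 lies within Cerkl on the same strand and shares 201 bp with it. Cerkl, at 0.137 ± 0.0804 CPM in Mock and 0.382 ± 0.143 in Auxin, was 1.48 log2 units higher in Auxin, with an SE of 0.45 (adjusted p = 0.0112), a call lost without Mock replicate 1 (1.24) or without Auxin replicate 1 (1.22). Both nearest tested neighbours of Neurod1 rose in Auxin, Itga4 by 1.58 and Itprid2 by 0.82 on the log2 scale.

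Atoh1, which specifies cerebellar granule neurons and inner-ear hair cells, gave 8, 10 and 0 counts across the Mock libraries, 0, 1 and 4 with auxin, and 2 per Reintroduction library (ENSMUSG00000073043.5, chromosome 6, 64729125 to 64731245, plus strand). Mock libraries were both the highest and among the lowest, so the groups overlapped. The summed counts of 5 in Auxin and 18 in Mock give a ratio of 0.315 with a counting interval from 0.0915 to 0.881. With the spread between libraries taken into account, in the fit without a filter, the log2 fold change was -1.52 (SE 1.13, edgeR, adjusted p = 0.304).

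Olig2, needed for motor neuron and oligodendrocyte precursors, gave 9, 8 and 4 counts across the Mock libraries, 1, 4 and 2 with auxin and 0 in all Reintroduction libraries (ENSMUSG00000039830.8, chromosome 16, 91225550 to 91228677, plus strand). The Mock values of 0.0874, 0.0966 and 0.056 CPM were above the Auxin values of 0.0122, 0.0525 and 0.0292 CPM, by a small margin at the nearest pair. Such separation was not counted over all genes. With a floor of 3 counts over Reintroduction and the 21 Mock counts taken as exact, Olig2 was 5.61-fold lower than in Mock. This is no strict lower bound. In the fit without a filter the difference between Reintroduction and Mock was called (edgeR, adjusted p = 5.25e-03), where 43.1% of all genes were called. Between Auxin and Mock, the log2 fold change in that fit was -1.33 (SE 0.94, adjusted p = 0.277). Between Reintroduction and Auxin, Olig2 was 2.12-fold lower against the same floor, with the Auxin counts taken as exact, and was not called (edgeR, adjusted p = 0.0665). In that fit 47.6% of genes were called in Auxin against Mock and 31.6% in Reintroduction against Auxin.

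Olig1, the partner gene of Olig2 in oligodendrocyte development, lies 41095 bp from it on chromosome 16 (ENSMUSG00000046160.6, 91269772 to 91271933, plus strand). Counts per library were 6, 2 and 0 for Mock, 2, 0 and 0 for Auxin, and 2, 4 and 2 for Reintroduction. Unlike the other detected genes, its mean was highest in Reintroduction, at 0.0462 ± 0.0371 CPM against 0.0275 ± 0.0293 in Mock (n = 3 each). These groups overlapped. Summed counts of 8 in each group give a ratio of 1.25 with a counting interval from 0.408 to 3.82, so neither direction can be read at this depth. Neither Olig gene shares exon sequence with another gene.

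**Figure D1:**
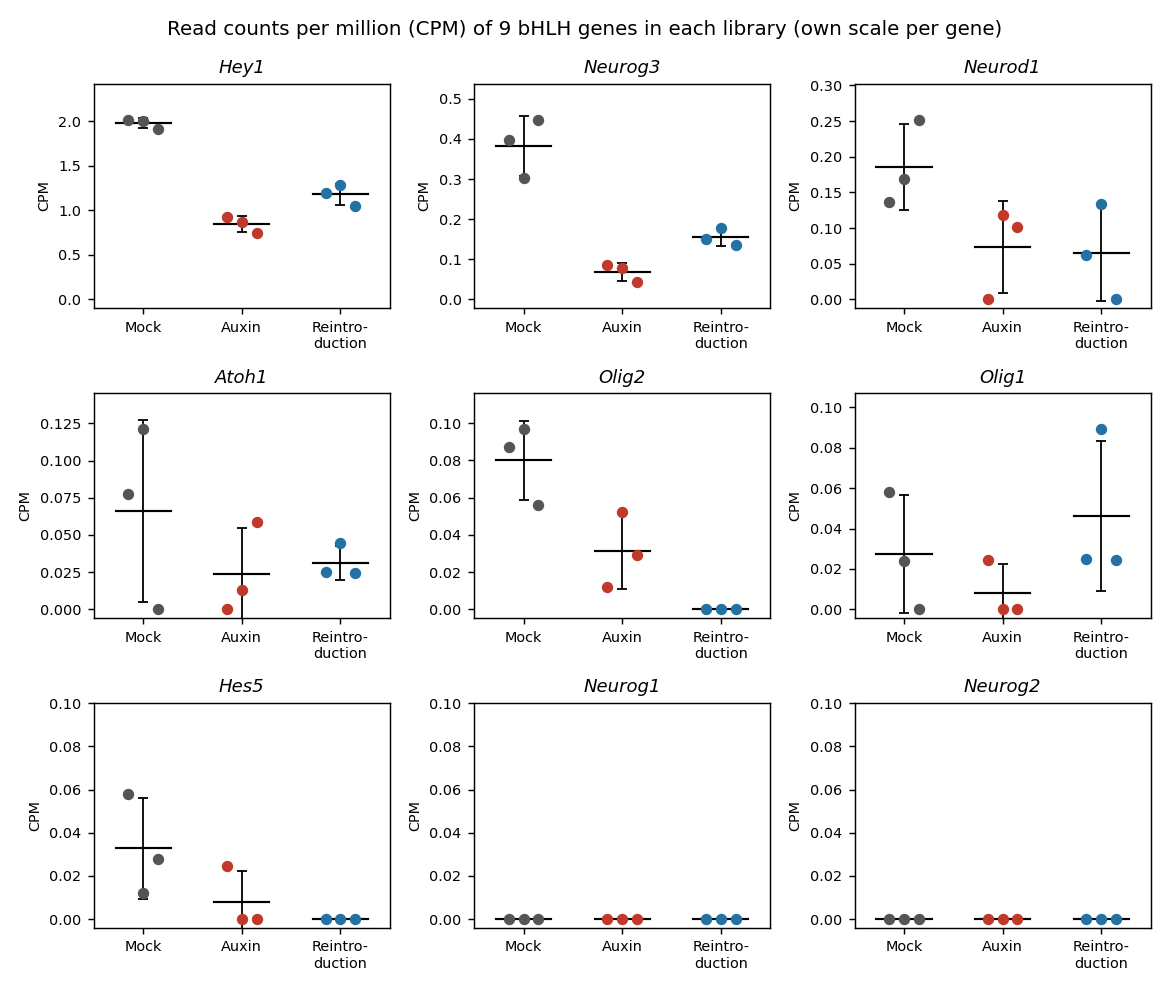
CPM of each of the 9 genes in every library (points), with the mean and SD over 3 libraries per group (black lines), each gene on its own linear axis from 0. The means of Hey1 and Neurog3 are highest in Mock and lowest in Auxin, while Neurog1 and Neurog2 are at 0 throughout.

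Levels were compared between genes per exon length, as CPM per kb. Averaged over all 9 libraries, Hey1 was highest at 0.409 CPM per kb, followed by Neurog3 at 0.131, Neurod1 at 0.0396, Atoh1 at 0.0191, Olig2 at 0.0152, Olig1 at 0.0126 and Hes5 at 0.01. In Mock, Hey1 (0.606 ± 0.0169) and Neurog3 (0.248 ± 0.0481) differed from each other and from the rest by more than their SD. Neighbours from Atoh1 (0.0312 ± 0.0288) through Olig2 (0.0328 ± 0.00874), Hes5 (0.024 ± 0.0172) and Olig1 (0.0127 ± 0.0135) did not differ beyond their spread. Even Hey1 was a gene of low expression: its level per kb was above that of 23.9% of the 20838 genes tested, and that of Neurog3 above 11.9%.

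**Figure D2:**
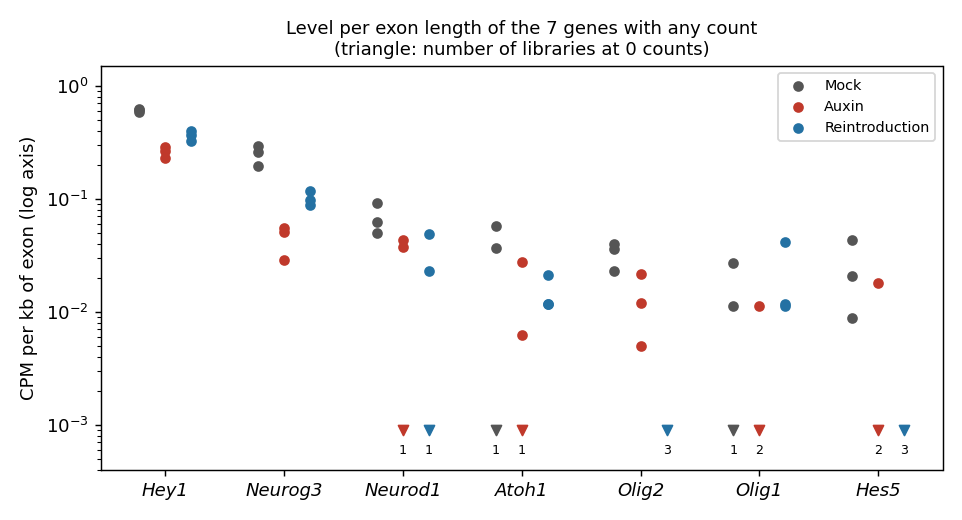
Level per exon length (CPM per kb, log axis) of the 7 genes with any count, one point per library coloured by group, with genes ordered by their mean over all libraries. Triangles below the axis range of the points mark libraries at 0 counts, with their number: Olig2 and Hes5 are at 0 in all 3 Reintroduction libraries.

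Of the 9 genes, 3 passed the filter on low counts and entered the test across all genes, with adjustment over 20838 genes. Neurog3 passed the filter level of 0.131 CPM in Mock and Reintroduction but in 0 Auxin libraries, and Neurod1 passed in 2 Mock libraries and 1 Reintroduction library. Hey1 alone passed in all groups, so Neurog3 and Neurod1 could hardly be called higher in Auxin. Of the 3 tested, 2 were called lower and 0 higher in Auxin against Mock (edgeR; 0 were higher at an unadjusted p under 0.05, and 0 under DESeq2). Over all genes 73.2% were called there, 34.8% lower and 38.4% higher. Scaled by total counts only, 9748 genes were higher and 5662 lower there, against 7996 and 7261 with TMM, and Hey1 (-1.01) and Neurog3 (-2.21) remained called lower. That scaling moves every log2 fold change in this comparison by about 0.21. In Reintroduction against Mock the same counts held, 2 lower and 0 higher, beside 68.1% of all genes called, 33.4% lower and 34.7% higher. In Reintroduction against Auxin 2 were called higher, beside 50.9% of all genes, 25.5% higher and 25.5% lower. Scaled by total counts only, 4279 genes were higher and 6393 lower there, and in Reintroduction against Mock 8570 were higher and 5736 lower. The median log2 fold change over all genes was 0.05, 0.03 and 0.00 in these comparisons, in this order.

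All 7 genes with any count had a lower summed level in Auxin than in Mock, and 6 of the 7, all but Olig1, had a lower one in Reintroduction than in Mock. Among all 32989 genes with a count in any library, 45.2% were lower in Auxin and 46.6% lower in Reintroduction by this measure. These are descriptions with no test, and 5 of the 7 genes did not pass a test in Auxin against Mock.

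Libraries held between 44341283 and 113931419 counts, with the fewest in Reintroduction replicate 2 and the most in Mock replicate 1. Values also followed gene length differently between groups: per doubling of exon length they changed by -0.18 to -0.13 log2 units in Mock, 0.03 to 0.12 in Auxin and 0.06 in Reintroduction. The exon lengths of the 9 genes ran from 1363 bp in Hes5 to 3265 bp in Hey1. With this trend removed, Hey1 stayed lower in Auxin at -1.28 and Neurog3 at -2.20. With the trends of length and GC content removed together the values were -1.22 and -2.10, and both genes remained called lower.

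**Figure D3:**
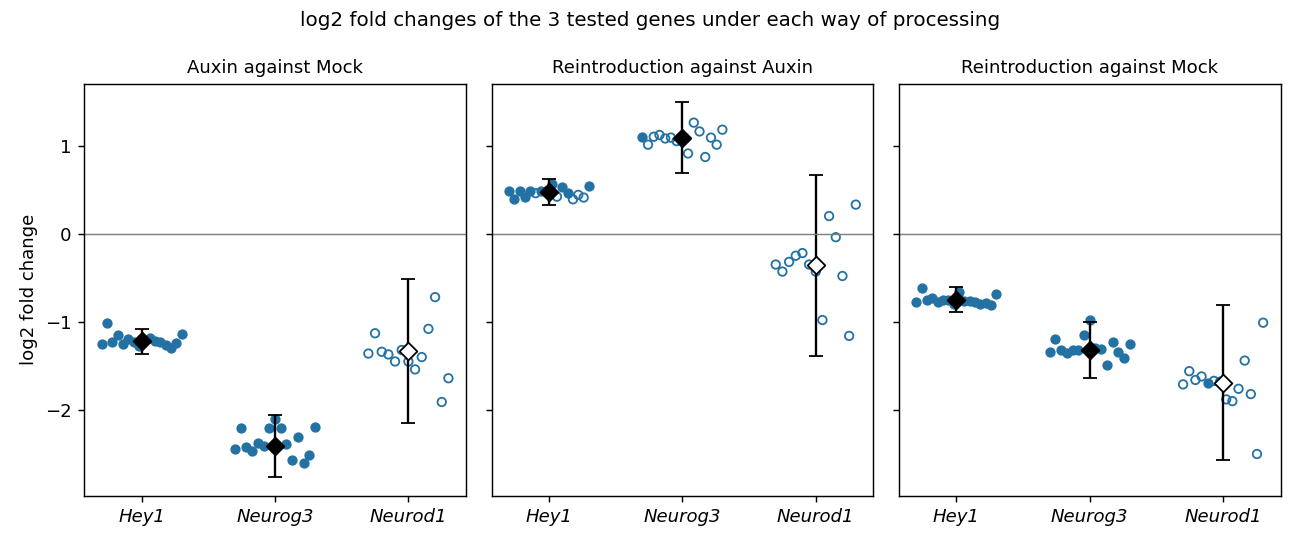
log2 fold changes (vertical axis) of Hey1, Neurog3 and Neurod1 in the 3 comparisons. Diamonds with SE bars give the reported fit and circles the alternatives, filled where the adjusted p was under 0.05: Hey1 and Neurog3 stay below 0 against Mock throughout, and most circles of Neurog3 in Reintroduction against Auxin are open.

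Genes that work with the 9 were read from lists by role, and the lists were drawn up with results of these data known. Of 15 other bHLH genes listed as neural, 4 were abundant enough to test. All 4 were called in Auxin against Mock, 2 in each direction, with a median log2 fold change of 0.53. The counts of this and the following lists stand beside the 73.2% of all genes called in that comparison, 38.4% higher and 34.8% lower, and are no result about a list where they are near it. Nhlh1, a factor of early neurons, rose by 4.43 on the log2 scale (SE 0.36), from 0.0871 to 1.82 CPM, and returned to 0.142 CPM in Reintroduction. Bhlhe22 rose by 2.04 and stayed high, at 2.28 above Mock in Reintroduction. Ascl2 was lower, at -0.98. Bhlhe23, which shares exon sequence with another gene, was also called lower, from 0.199 ± 0.0321 CPM in Mock to 0.0195 ± 0.0337 in Auxin (SD, n = 3 each). Its log2 fold change of -3.38 ran from -6.97, without Auxin replicate 3, to -2.78 with 1 library left out.

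Of 10 related bHLH repressors, 8 of the HES and HEY family beyond Hes5 and Hey1 and the DEC factors Bhlhe40 and Bhlhe41, 5 were tested. In Auxin 3 were called higher, Hes1 and both DEC factors, and 1 lower, with a median of 1.08 over the 5. Hes1, the member that oscillates in stem cells, rose from 48 to 102 CPM in Auxin (log2 fold change 1.08, adjusted p = 1.17e-07) and stood at 46.1 CPM in Reintroduction. The DEC factors Bhlhe40 and Bhlhe41 rose by 2.89 and 4.18, while Hes6 fell by 0.60 on the log2 scale. Hey2, the closest relative of Hey1, had a log2 fold change of 0.43 in Auxin against Mock that did not pass (adjusted p = 0.0996). Bhlhe23 and Hey2 were named after their values were seen. Hey1 and Hes1 are both Notch-responsive genes, and they were called in opposite directions.

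Among the 7 E proteins and ID inhibitors, which bind bHLH factors as partners or as traps, 3 were higher and 3 lower in Auxin, the median being 0.13. Tcf12 rose by 2.54 and the inhibitor Id4 by 1.70, while Tcf3 fell by 0.91. Of 31 Notch pathway genes, 29 were tested, of which 14 rose and 9 fell (79.3% called), the median log2 fold change being 0.21. The glycosyltransferase Lfng rose by 3.01, the gamma-secretase subunit Ncstn by 1.07 and the coactivator Maml1 by 1.22. Among the 9 that fell were the ligand gene Jag1 (-1.32), the receptor gene Notch4 (-0.96) and Mfng (-1.48), a relative of Lfng, of which Jag1 and Mfng were chosen after their values were seen. Of 18 proneural target genes 9 were tested, with 2 called higher (Cbfa2t3 at 3.08 among them) and 3 lower (Elavl3 at -1.59 among them) and a median of 0.82.

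**Figure D4:**
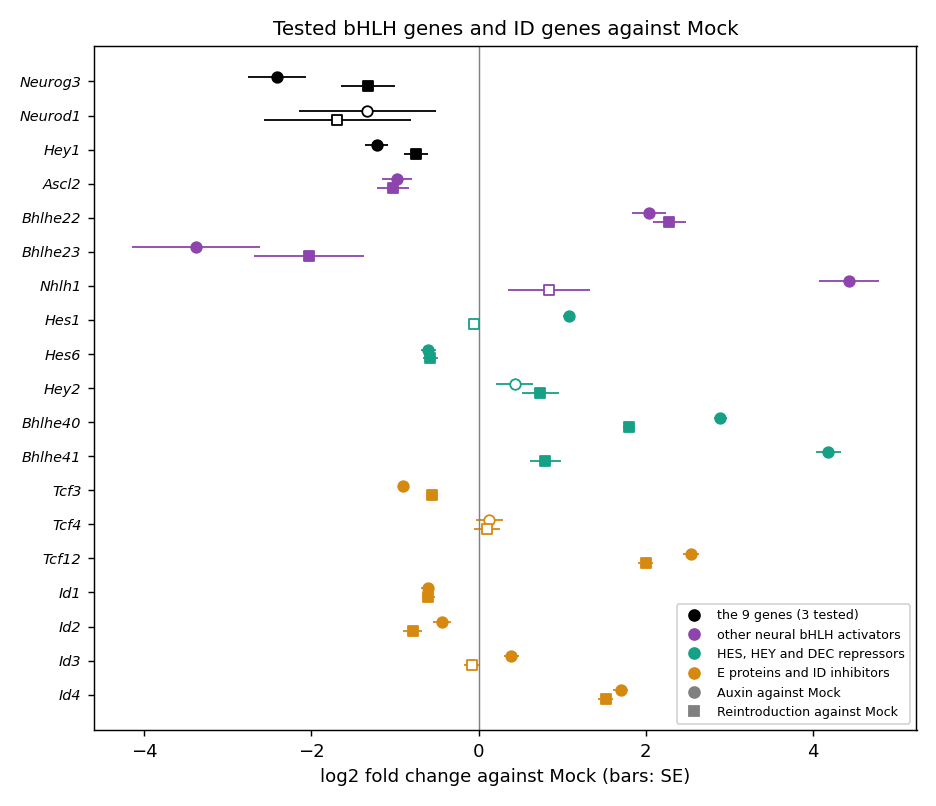
log2 fold changes against Mock with SE bars for the tested genes among the 9 and 3 related lists (the repressor list holds the DEC factors Bhlhe40 and Bhlhe41), circles for Auxin and squares for Reintroduction, filled where called. The 3 tested members of the 9 lie left of 0, and Neurod1 was not called. Neurog3 and Neurod1 had 0 Auxin libraries over the filter level, so they entered the test through the other groups. The legend names a list as activators, a name that was not checked gene by gene.

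Stem cell identity was checked on markers. The 10 stem cell markers, of which 7 were called higher and 3 lower in Auxin, had a summed level of 6186 to 6367 CPM in Mock, 7625 to 8182 in Auxin and 5956 to 6024 in Reintroduction. The 3 lower in Auxin were Pou5f1 (-0.53, from 844 to 583 CPM), Dppa5a (-1.16) and Utf1 (-1.03), so the markers did not move together. Pou5f1 was also lower in Reintroduction than in Mock (-0.55). The 12 neural progenitor markers summed to 36.6 to 38.3 CPM in Mock, 40.3 to 42.1 in Auxin and 33.1 to 33.5 in Reintroduction. In Auxin 4 of the 10 tested were higher and 4 lower, with Msi1 at 0.93 and Sox3 at -2.36. The neuron marker Dcx and the glial marker Aqp4 had 0 counts in every library, the only genes of their lists to do so. Others were expressed in Mock, among them Slc1a3 at 16.8 CPM and Aldh1l1 at 10.5. The 11 neuron markers summed to 354 to 387 CPM in Mock and 271 to 307 in Auxin, and the 12 glial markers to 32.8 to 34.5 and 37.9 to 39.1. Most of the neuron sum was Stmn2 and Tubb3, at 228 and 98.6 CPM in Mock, which were lower in Auxin (log2 fold changes -0.53 and -0.43). In Auxin 4 of the 10 neuron markers tested were called higher and 3 lower, and 4 of the 9 glial markers tested higher and 1 lower. These are 70% and 55.6% called, near or under the share over all genes. Their part in the levels of the 9 genes was not tested.

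The genes whose log2 CPM followed the tested members most closely over the 9 libraries were named as a description. For Hey1 these were Itpripl1, Nup54 and Trmt11, with Pearson r of 1.00, 0.99 and 0.99, and 1434 of 15132 genes had an r over 0.95. For Neurog3 they were Mt3, Ppil3 and Gm20239, each at 0.99, with 1079 genes over 0.95. The points share the 3 groups and the library depths, so a close match is common. Neurod1 had no gene over 0.90, and Gm28527 was nearest at 0.89.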

How the data were processed

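RNA from 9 libraries of Suz12-AID mouse embryonic stem cells was sequenced as 75 bp read pairs. The deposited values are raw counts per gene, which the authors made with featureCounts 2.0.6 over exons of an mm10 annotation, without strand and counting each mate, per the file headers. The submitters' processing notes also name Trim Galore 0.6.10, FastQC 0.12.1, Bowtie2 2.5.3 and SAMtools 1.20, with no order or settings.

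Counts were fitted over all 9 libraries with edgeR 4.0.16 (R 4.3.3, quasi-likelihood test, TMM scaling, group as the only term). Genes passed filterByExpr (0.131 CPM in at least 3 libraries, minimum count 10), p-values were adjusted over the 20838 genes tested by Benjamini-Hochberg, and an adjusted p under 0.05 was called. The code was tested on simulated data. CPM are counts-per-million values of TMM-scaled library size, SE is the log2 fold change over the root of F, and floors are 3 counts. Genes not tested were read from summed counts with exact 95% intervals and from a fit without the filter.

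The members and lists were chosen with earlier results of these data known. From each related list, up to 3 called genes with the smallest p and at least 1 CPM in the higher group were named, with the nearest tested neighbours of tested members and the 3 genes most like each of them. Alternatives covered scaling, filter, DESeq2 1.42.0, samples in the fit, the replicate block, length and GC trends, halved counts and each library left out. The labels call the replicates biological and do not say how the cultures were separated, so p-values measure the spread between these samples. Libraries held 44341283 to 113931419 counts.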

Additional observations from a re-analysis of the deposited data

How the results depend on the processing

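Of the 16 alternatives, 15 kept 2 of the genes called in Auxin against Mock, and 1 was called where at least 1 CPM in 3 libraries was required, since Hey1 alone could then be tested. In Reintroduction against Mock that filter likewise left 1. In Reintroduction against Auxin the count of 2 fell to 1 under total counts only, no filter, at least 1 CPM in 3 libraries, the DESeq2 Wald test, the replicate block and the length trend removed, and to 0 with only the 2 groups compared and with counts halved. Leaving out 1 library gave 0 to 1 there, with 0 without Auxin replicate 3, Reintroduction replicate 1 or Reintroduction replicate 2. The cause was not tested. Neurod1 in that comparison ran from -1.16 to 0.33 with 1 library left out, and reversed to 0.20 without Auxin replicate 2 and to 0.33 without Reintroduction replicate 3. It was called lower than Mock in Reintroduction (-1.69, edgeR adjusted p = 0.038) only where the 2 groups alone were fitted. No steady pairing by replicate number was seen: of 9 same-numbered pairs, 2 had a correlation of deviations over 0.1, and the range was -0.55 to 0.45. With 3 libraries per group, this check cannot exclude a pairing. Libraries of different number could also share deviations. Mock replicate 1 had r = 0.65 with Auxin replicate 2 and r = -0.59 with Auxin replicate 3. The source of this was not tested. With the replicate block, Neurog3 in Reintroduction against Auxin was 1.09 with an edgeR adjusted p of 0.077. Members at a few counts are limited by depth, and counting both mates overstates the number of independent fragments.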
